A study of Mus musculus with 36 samples.

Results

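Irf1 and 9 interferon-inducible GTPase genes (Gbp2, Gbp3, Gbp5, Gbp7, Irgm1, Irgm2, Igtp, Iigp1 and Ifi47) were followed by RNA-seq in cultured mouse microglia and astrocytes. The 10 genes were chosen by name. All 10 were listed among the 15385 genes of the microglial table and among the 14551 genes of the astrocyte table, and all 10 passed the filter on low values in each table (10524 and 13842 genes passed in all). The brains of C57BL/6 pups aged 2 to 4 days were pooled, and the mixed glia grew for 12 days before microglia were taken by CD11b selection and astrocytes from the fraction that remained. Cells were treated for 4 h with the vehicle DMSO, with Nec-1s (N), an inhibitor of the kinase RIPK1, with TNF and the TAK1 inhibitor 5z-7 (T/5z, microglia only), or with TNF, a Smac mimetic and the caspase inhibitor zVAD (T/S/Z). Each stimulus was also given together with Nec-1s, written T/5z/N and, for the other, T/S/Z/N. In the study T/5z served to start apoptosis that depends on RIPK1, and T/S/Z necroptosis. There were 4 microglial libraries per treatment, 24 in all, and 3 astrocyte libraries per treatment, 12 in all. The kinase of RIPK1 was addressed only through the inhibitor. The labels do not say whether libraries of 1 treatment came from separate cultures, while the methods of the study describe replicates, for its experiments in general, as cells of separate litters. The p-values measure the spread between these libraries after blocking on replicate number, with each gene's variance moderated by those of all tested genes.

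IRF1 is a transcription factor that is made in response to interferons and, through NF-kB, to TNF, and that in turn switches on many interferon-inducible genes. The guanylate-binding proteins (GBPs) and the immunity-related GTPases (IRGs) are GTP-hydrolysing proteins of cell-autonomous immunity, which gather on the vacuoles or membranes of intracellular pathogens. Among the IRGs, Irgm1, Irgm2 and Igtp (also known as Irgm3) are regulators that keep the effector IRGs, among them Iigp1 and Ifi47, inactive on the cell's own membranes. In glia both families are known as markers of exposure to interferon.

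Gbp5, Gbp7, Gbp3 and Gbp2 lie in a cluster of GBP genes, within 144 kb of mouse chromosome 3 (GRCm38, chr3:142493978-142638008). Irgm1 (ENSMUSG00000046879), Ifi47 (ENSMUSG00000078920), Irf1 (ENSMUSG00000018899), Igtp (ENSMUSG00000078853) and Irgm2 (ENSMUSG00000069874) lie on chromosome 11. Some annotated exons overlap. Igtp and Irgm2 share 162 exon bases on the same strand, 8.01% of the exon bases of Igtp and 4.39% of those of Irgm2. Gbp7 shares 637 exon bases (11.3%) with the pseudogene Gm43802, and Ifi47 shares 111 (4.49%) with Olfr56. Irf1 shares 135 (3.4%) with Gm17334 on the opposite strand. Values of these genes, and of their family members with similar sequence, may hold reads of a neighbour. The microglial annotation also had shorter gene models for some members, with 3055 exon bases of Gbp5 (ENSMUSG00000105504) against 6637 in the astrocyte annotation.

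Stretches of promoter sequence are shown because these genes are linked by the factors named above. The RefSeq windows searched (GRCm38.p6) ran from 250 bases before to 50 bases after the transcription start. They covered 9 of the 10 genes, with 11 windows. Iigp1 was left out of the search, so its promoter was not examined. An IRF-type motif, GAAANNGAAA on either strand, was in the windows of 7 genes (Gbp2, Gbp3, Gbp5, Gbp7, Irgm1, Irgm2 and Igtp) and in 3.44% of the 32851 windows searched. The motifs were chosen after the windows had been seen, and a match is a match of letters only. Each stretch below is written 5′ to 3′ on the strand given, with the matches in capitals. Those in the Gbp genes read on the reverse strand.
Gbp5 (chr3:142496759-142496788, + strand): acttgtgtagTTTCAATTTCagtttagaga
Gbp7 (chr3:142530273-142530302, + strand): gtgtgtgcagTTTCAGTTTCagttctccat
Gbp3 (chr3:142559989-142560018, + strand): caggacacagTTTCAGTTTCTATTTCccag
Gbp2 (chr3:142620594-142620623, + strand): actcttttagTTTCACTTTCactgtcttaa
Irgm1 (chr11:48871431-48871460, - strand): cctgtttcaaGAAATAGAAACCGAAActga
Igtp (chr11:58199512-58199541, + strand): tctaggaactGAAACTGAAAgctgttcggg
Irgm2 (chr11:58214903-58214932, + strand): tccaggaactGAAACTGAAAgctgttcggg
The Igtp and Irgm2 stretches have the same letters in the match and after it. Gbp3 and Irgm1 each hold overlapping matches.

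Irf1 itself had no IRF-type match in its window. It had a motif of the interferon-gamma activated site (GAS) type, TTCNNNGAA, which reads the same on both strands, and a kappaB-type motif close to its start. The last 110 bases before the start are shown with both in capitals.
Irf1 (chr11:53769904-53770013, + strand): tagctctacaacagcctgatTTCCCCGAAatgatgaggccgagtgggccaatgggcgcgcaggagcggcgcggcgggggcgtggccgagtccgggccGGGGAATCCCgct
GAS matches were in the windows of 5 genes (Irf1, Gbp5, Gbp7, Irgm2 and Igtp) and in 8.3% of the windows searched. The kappaB-type motif was in the windows of 3 genes (Irf1, Gbp2 and Gbp5) and in 8.46% of the windows searched. The window of Ifi47 held none of these letters.

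**Figure D1:**
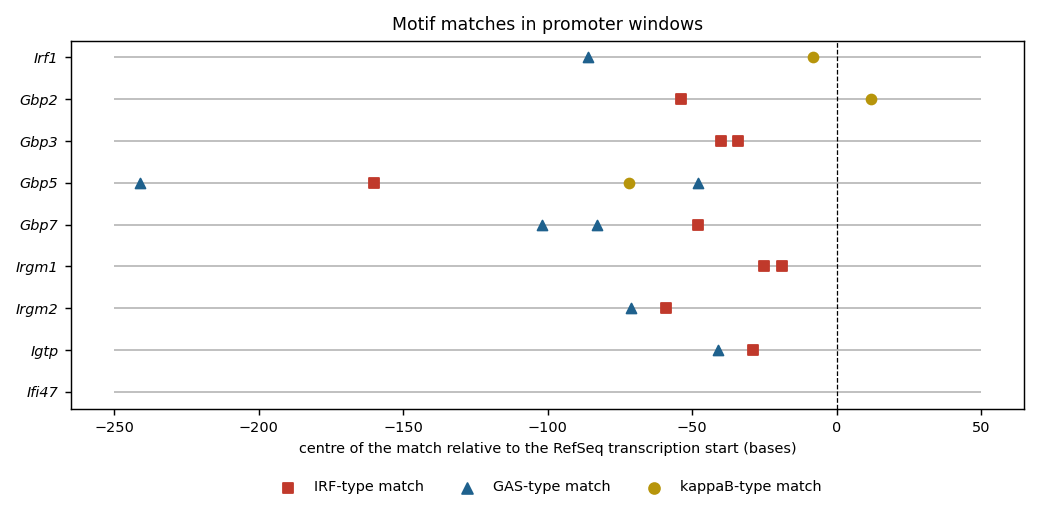
Motif matches in the RefSeq promoter windows of 9 genes (rows); the horizontal axis is the distance in bases of the centre of each match from the transcription start, and red squares, blue triangles and yellow circles mark IRF-type, GAS-type and kappaB-type matches. Matches of an IRF-type motif appear in 7 rows, Irf1 and Gbp5 have both other motifs, and the Ifi47 row is empty.

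Values are deposited as log2(FPKM + 1). Changes are differences on that scale, so that for low values they come out smaller than the true log2 ratio. A gene is called when its fold change exceeds 1.5 and its limma adjusted p is under 0.05. Markers of the labelled cell type were high in each set of libraries, beside markers of other cells. Microglial markers (15 of 15 listed) summed to between 12955 and 16170 FPKM in microglia and to between 76.0 and 135 in astrocytes (14 of 15 listed). Astrocyte markers summed to between 3142 and 3723 FPKM in astrocytes (12 of 12 listed) and to between 6.73 and 28.4 in microglia (11 of 12 listed). Fibroblast and mural markers summed to between 623 and 1312 FPKM in astrocytes and to between 4.09 and 28.7 in microglia. In bulk RNA, fewer cells of a type and less RNA per cell cannot be told apart.

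The regulator Irgm1 was the most abundant of the 10 genes in resting microglia. In DMSO microglia its mean was 5.55 ± 0.15 (SD, n = 4; 45.8 FPKM after back-transformation), followed by Irf1 with 4.50 ± 0.18 (21.6 FPKM) and Igtp with 3.96 ± 0.14 (14.6 FPKM). Gbp5, which promotes inflammasome assembly, was among the lowest with 1.23 ± 0.25 (1.35 FPKM), beside Iigp1 with 1.40 ± 0.16 and Gbp7 with 1.56 ± 0.12. In DMSO astrocytes, Irgm1 and Gbp2 stood highest, with 5.13 ± 0.21 (n = 3; 34.0 FPKM) and 5.10 ± 0.11 (33.3 FPKM). Gbp5 (1.04 ± 0.33) and Ifi47 (1.20 ± 0.35) were lowest there. The tables were normalized separately by the authors, so levels were not tested between the cell types.

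**Figure D2:**
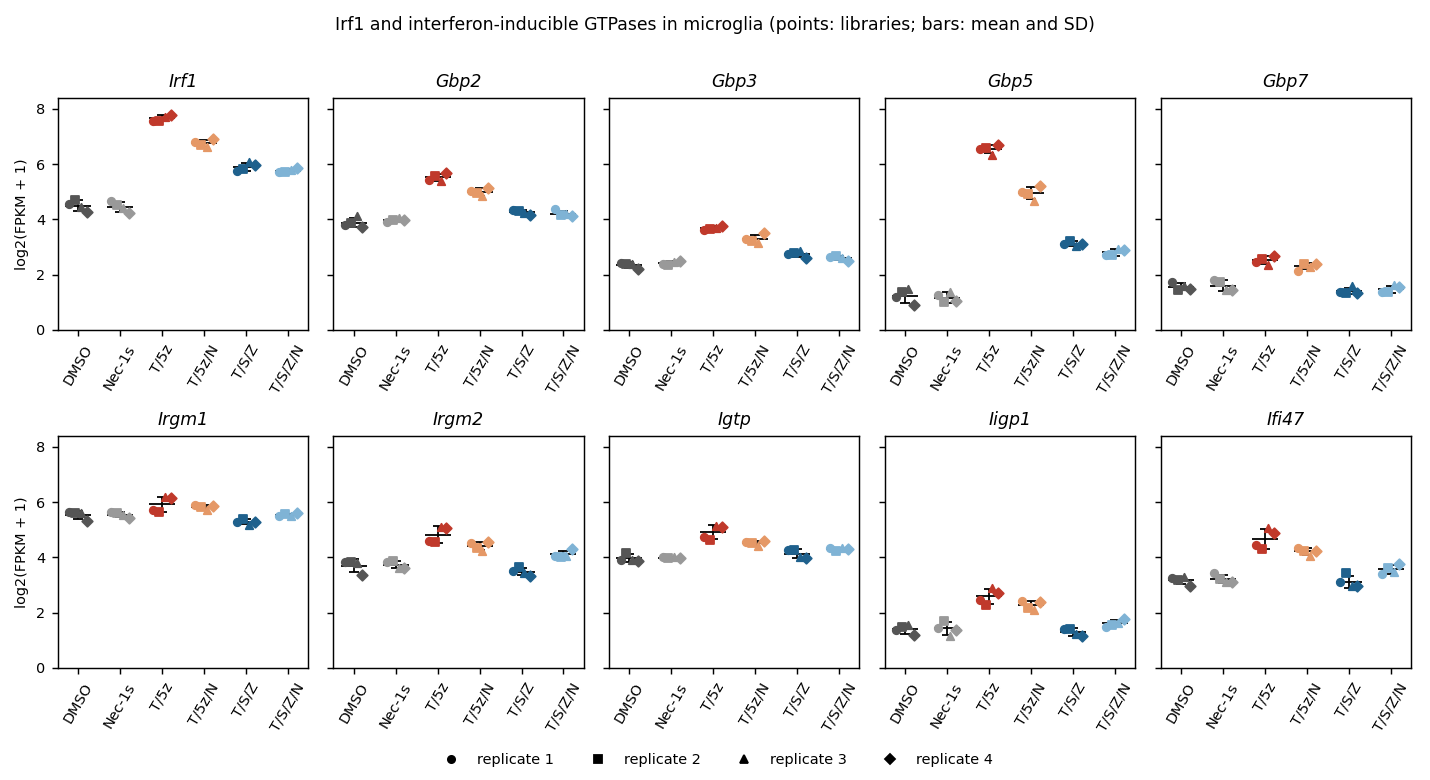
Levels of the 10 genes in microglia: each panel is a gene, the horizontal axis is the treatment, the vertical axis is log2(FPKM + 1), points are libraries with a symbol per replicate number, and bars are the mean and SD of 4 libraries. The mean of T/5z is the highest in every panel, and the T/S/Z libraries of Irf1 and Gbp5 stand well above DMSO, at 5.74 to 6.06 and 3.02 to 3.23.

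The first question was whether the inhibitor by itself moved these genes in unstimulated cells. With Nec-1s alone, 0 of 10 genes were called by limma in microglia against DMSO (0% of all tested genes were), none of the 10 had an unadjusted p under 0.05, and 892 of all genes did. The changes lay between -0.06 (Gbp5) and 0.09 (Gbp2), and the ranges of the libraries overlapped for every one of the 10 genes, while they did not for 2.96% of all tested genes. In astrocytes 0 of 10 genes were called (0.0144% of all tested genes were), but 5 of 10 had an unadjusted p under 0.05, all of them lower with Nec-1s, as did 790 of all 13842 genes (5.71%) in either direction. Irf1 read 3.92, 3.73 and 3.79 in the DMSO astrocytes and 3.52, 3.40 and 3.42 with Nec-1s. The difference was -0.37 (95% interval -0.55 to -0.18, limma adjusted p 0.774). The largest differences were those of Iigp1 (-0.44, limma adjusted p 0.857) and Igtp (-0.42, limma adjusted p 0.85).

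T/5z raised Irf1 and 8 of the 9 GTPase genes in microglia. Of the 10 genes, 9 were called higher (11.1% of all tested genes were), and the ranges of T/5z and DMSO libraries did not overlap for any of the 10 (nor for 63.5% of all tested genes). The median change of the 10 genes was 1.26, beside -0.06 over all tested genes. The largest rises were those of Gbp5 and of Irf1.

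Gbp5 read 1.18, 1.36, 1.48 and 0.91 in DMSO and 6.55, 6.59, 6.33 and 6.68 after T/5z. It went from among the lowest of the 10 genes to the second highest, with a rise of 5.31 (SE 0.133, limma adjusted p 4.93e-07). Irf1 read 4.57, 4.70, 4.46 and 4.26 in DMSO and 7.57, 7.57, 7.72 and 7.79 after T/5z, a rise of 3.16 (SE 0.103, limma adjusted p 9.61e-07). It became the highest of the 10 genes, at 201 FPKM after back-transformation. Gbp2, which acts against bacteria and Toxoplasma, read 3.80, 3.87, 4.12 and 3.73 in DMSO and 5.44, 5.57, 5.40 and 5.70 after T/5z, a rise of 1.64 (SE 0.104, limma adjusted p 1.5e-05). Gbp3 rose by 1.33 (SE 0.076) and Gbp7 by 0.96 (SE 0.101).

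The IRG genes rose less evenly between libraries. Ifi47 read 3.24, 3.17, 3.29 and 2.97 in DMSO and 4.43, 4.30, 5.05 and 4.88 after T/5z, a rise of 1.5 (SE 0.137, limma adjusted p 8.87e-05). Irgm2 read 3.82, 3.83, 3.80 and 3.37 in DMSO and 4.58, 4.55, 5.11 and 5.06 after T/5z, a rise of 1.12 (SE 0.16, limma adjusted p 0.000771). In both genes the T/5z libraries of replicates 3 and 4 stood above those of replicates 1 and 2. The same held for Igtp (4.74, 4.63, 5.13 and 5.11) and Iigp1 (2.47, 2.28, 2.90 and 2.70), which rose by 0.94 (SE 0.133) and 1.19 (SE 0.119). Irgm1, already the most abundant member, read 5.65, 5.62, 5.60 and 5.33 in DMSO and 5.73, 5.66, 6.17 and 6.16 after T/5z. Its change of 0.38 (SE 0.133, limma adjusted p 0.0395) was under the fold minimum, and without replicate 4 it was 0.23 (limma adjusted p 0.108). With 5 added before the log, Gbp7 changed by 0.49 and was no longer past the fold minimum.

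Markers of other cells moved with T/5z. Of the 12 astrocyte markers 7 were tested and 5 were called higher, and of the 9 fibroblast and mural markers 5 were tested and all 5 were called higher. The astrocyte markers summed to 23.9, 28.4, 23.4 and 16.0 FPKM in T/5z replicates 1 to 4, against 9.78 to 11.8 in DMSO. The fibroblast and mural markers summed to 22.0, 28.7, 20.8 and 16.2 FPKM, against 8.28 to 11.0. Of the 3 endothelial markers tested 1 was called lower, and of the 4 oligodendrocyte lineage markers 1 was called higher and 1 lower. The part of these cells in the rises of the 10 genes was not tested.

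T/S/Z, given to the same cell type, raised only Irf1 and Gbp5 among the 10 genes. The count of 2 called higher (12.2% of all tested genes were) came with a median change of 0.06, beside -0.08 over all tested genes. Gbp5 read 3.11, 3.23, 3.02 and 3.09 after T/S/Z, above all DMSO libraries, a rise of 1.88 (SE 0.107, limma adjusted p 3.56e-06). Irf1 read 5.74, 5.81, 6.06 and 5.97, a rise of 1.39 (SE 0.107, limma adjusted p 1.61e-05). The changes of Gbp2 and Gbp3, 0.38 (SE 0.0778) and 0.40 (SE 0.0662), were under the fold minimum. Gbp3 passed it after quantile normalization, with 0.60.

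The IRG genes and Gbp7 stayed close to DMSO after T/S/Z. Irgm1 read 5.26, 5.40, 5.18 and 5.29 and Irgm2 3.50, 3.65, 3.45 and 3.34, each lower than the DMSO library of the same number in 4 of 4 pairs. Their changes were -0.26 (SE 0.0729, limma adjusted p 0.0124) and -0.22 (SE 0.0729, limma adjusted p 0.0279), under the fold minimum. Gbp7 differed by -0.15 (95% interval -0.36 to 0.05), Iigp1 by -0.10 (-0.31 to 0.11), Ifi47 by -0.05 (-0.28 to 0.18) and Igtp by 0.18 (0.02 to 0.33, and 0.12 without replicate 1). After quantile normalization the differences of Gbp7, Iigp1 and Ifi47 were above 0 (0.083, 0.11 and 0.094), as was that of Ifi47 after centring of the libraries (0.05). Astrocyte markers summed to between 17.2 and 26.6 FPKM after T/S/Z, which overlaps the range after T/5z, and 5 of the 7 tested were called higher. Fibroblast and mural markers summed to between 6.81 and 10.9, and 0 of 5 were called. Of the endothelial markers 2 of 3 were called lower, of the oligodendrocyte lineage markers 2 of 4 higher and 1 lower, and the T and NK cell marker tested was called lower (-0.63). The part of these cells in the values of the 10 genes was not tested.

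Both comparisons share the DMSO libraries, so the stimuli were also compared directly. All 10 genes were lower after T/S/Z than after T/5z and were called (4.42% of all tested genes were called lower), and the ranges overlapped for none of the 10 (nor for 45.9% of all tested genes). The median difference was -1.28, beside -0.03 over all tested genes. Gbp5 was lower by the most, -3.42 (SE 0.0597, limma adjusted p 3.77e-07), followed by Irf1 with -1.77 (SE 0.0493, limma adjusted p 3.18e-06) and Ifi47 with -1.55 (SE 0.188, limma adjusted p 0.000767). Irgm1 had the smallest difference, -0.64 (SE 0.118, limma adjusted p 0.00484). It was not past the fold minimum without replicate 3 (-0.53) or without replicate 4 (-0.57), and Gbp7 was not with 5 added before the log (-0.55). Without moderation of the variances 7 of 10 were called, and Irgm1, Igtp and Ifi47 were not (limma fit, adjusted p 0.0901, 0.0915 and 0.0516). Fibroblast and mural markers were lower in this comparison too, with 4 of 5 called lower and a median difference of -0.85, while 0 of 7 astrocyte markers were called. Their part in the differences of the 10 genes was not tested.

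The order of the treatments differed between the genes. For Irf1 and Gbp5 it was T/5z, T/5z/N, T/S/Z, T/S/Z/N and then the unstimulated groups. For Gbp5 each stimulated group stood clear of the next, and for Irf1 only the T/S/Z and T/S/Z/N libraries overlapped. For Gbp2 the first positions were the same, and T/S/Z overlapped T/S/Z/N. For Gbp7, Irgm1, Irgm2, Iigp1 and Ifi47 the T/S/Z group came last, below DMSO and Nec-1s, with libraries that overlapped those of DMSO, although Gbp7, Iigp1 and Ifi47 lay above DMSO after quantile normalization.

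**Figure D3:**
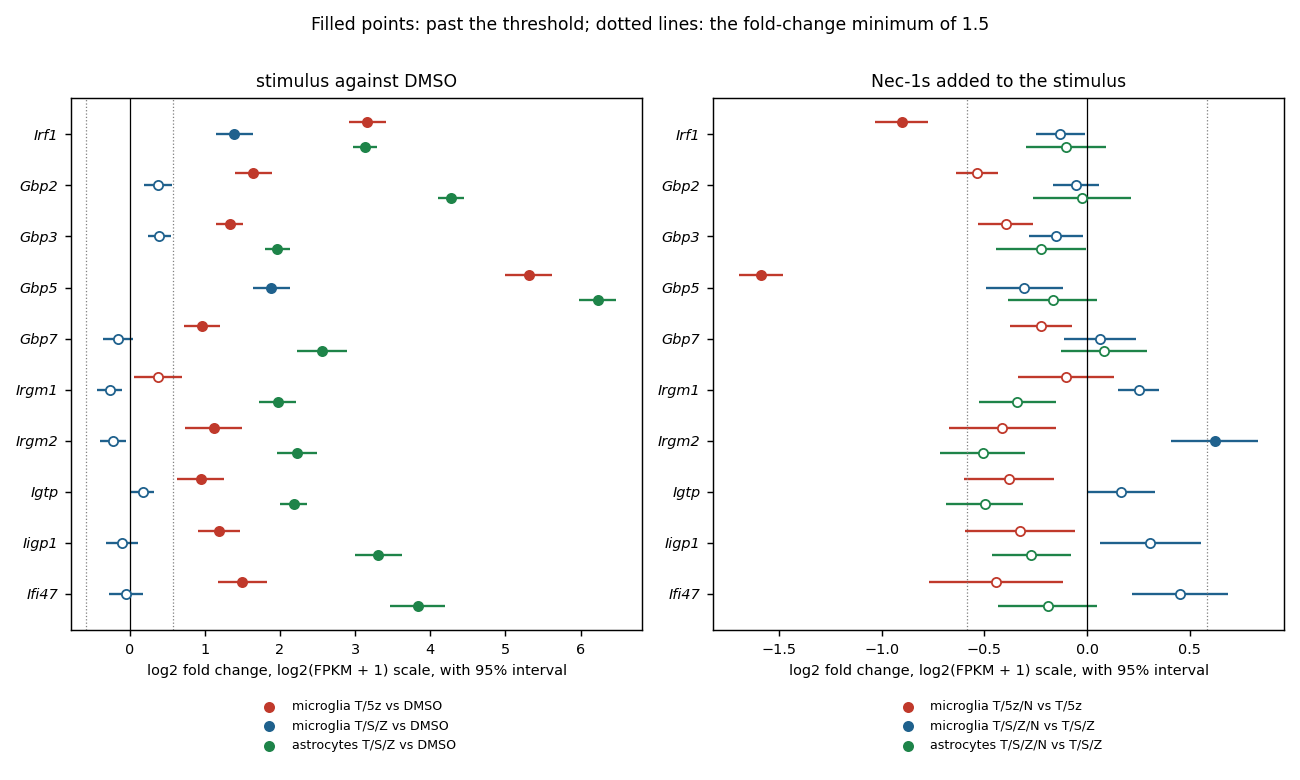
Changes of the 10 genes with their 95% intervals: the left panel shows each stimulus against DMSO and the right panel Nec-1s added to the stimulus, with log2 fold change on the horizontal axis, red for T/5z and blue for T/S/Z in microglia and green for T/S/Z in astrocytes. Filled points passed the threshold; in microglia 9 red and 2 blue points are filled on the left, and all 10 green points are.

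The combined treatments ask which part of a change required RIPK1 kinase activity. After T/5z, Nec-1s lowered Irf1 and Gbp5, 2 of the 10 genes (4.52% of all tested genes were called lower). Gbp5 read 5.01, 4.94, 4.66 and 5.21 in T/5z/N, between the DMSO and the T/5z libraries, and fell by 1.59 (SE 0.0469, limma adjusted p 5.04e-07). Irf1 read 6.80, 6.70, 6.61 and 6.92 and fell by 0.90 (SE 0.0557, limma adjusted p 1.06e-05). Both genes were lower in 4 of 4 pairs.

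For the other GTPase genes the differences made by Nec-1s were under the fold minimum. Gbp2 differed by -0.54 (SE 0.0441, limma adjusted p 4.42e-05) and Gbp3 by -0.40 (SE 0.0583, limma adjusted p 0.00092), each in 4 of 4 pairs. Among the IRG genes the replicate numbers went apart, in a table where each gene has the same mean over the treatments in every replicate number, so that a value high in 1 treatment goes with lower values in the others of that number. Ifi47 differed by -0.09 and -0.06 in replicates 1 and 2 and by -0.99 and -0.63 in replicates 3 and 4. Irgm2 differed by -0.08, -0.22, -0.87 and -0.48. Irgm1 was higher with Nec-1s in replicates 1 and 2 (0.16 and 0.17) and lower in replicates 3 and 4 (-0.45 and -0.29). The means were -0.44 for Ifi47 (limma adjusted p 0.0315), -0.41 for Irgm2 (limma adjusted p 0.0172) and -0.10 for Irgm1 (limma adjusted p 0.435). Without replicate 3 they were -0.26, -0.26 and 0.015.

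After T/S/Z, Nec-1s left Irf1 at 5.70, 5.72, 5.78 and 5.86, overlapping the T/S/Z libraries, with a difference of -0.13 (95% interval -0.25 to -0.01, limma adjusted p 0.0604). Gbp5 read 2.70, 2.70, 2.94 and 2.89 and differed by -0.31 (SE 0.0806, limma adjusted p 0.0127), under the fold minimum. Irgm2 was the gene called, and it was higher with Nec-1s (1 of 10, with 5.35% of all tested genes called higher). It read 3.50, 3.65, 3.45 and 3.34 after T/S/Z and 4.03, 4.03, 4.06 and 4.32 after T/S/Z/N, a rise of 0.62 (SE 0.0914, limma adjusted p 0.000855). The rise was close to the fold minimum and was under it without replicate 4 (0.50), with 5 added before the log (0.48), after quantile normalization (0.57) and after centring of the libraries (0.55). Ifi47 was higher by 0.45 (SE 0.0999, limma adjusted p 0.00572), Iigp1 by 0.31 and Irgm1 by 0.25, each in 4 of 4 pairs and under the fold minimum. Without replicate 4 the Iigp1 difference was 0.20 (limma adjusted p 0.135). The astrocyte markers fell with Nec-1s here as well, with 5 of 7 called lower and sums of 6.73 to 8.04 FPKM. After T/5z 5 of 7 were called lower too. Fibroblast and mural markers fell with Nec-1s after T/5z, with 3 of 5 called lower and sums of 9.13 to 12.0 FPKM, and after T/S/Z 1 of 5 was called lower, with sums of 4.09 to 7.28. The part of both lists in the values of the 10 genes was not tested.

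Whether Nec-1s acted differently after the stimuli was tested as an interaction over the 16 stimulated libraries. The effect after T/5z was lower than the effect after T/S/Z for 5 of 10 genes (2.7% of all tested genes were called lower). These were Gbp5 (-1.28, SE 0.124, limma adjusted p 8.14e-06), Irgm2 (-1.03, SE 0.171, limma adjusted p 0.000611), Ifi47 (-0.90, SE 0.218, limma adjusted p 0.00831), Irf1 (-0.77, SE 0.0852, limma adjusted p 2.28e-05) and Iigp1 (-0.63, SE 0.175, limma adjusted p 0.0172). In Gbp5 and Irf1 the effect was a fall after T/5z and a smaller negative value after T/S/Z. In Irgm2, Ifi47 and Iigp1 it was negative after T/5z and positive after T/S/Z. The Ifi47 difference was not called without replicate 4 (-0.71, limma adjusted p 0.0843). The Iigp1 difference was not called without replicate 3 or without replicate 4 (-0.45 and -0.53), nor with 5 added before the log (-0.31). Without replicate 4, 3 of the 10 genes were called, while without replicate 1 or replicate 2 Igtp was called as well (-0.65 and -0.71).

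**Figure D4:**
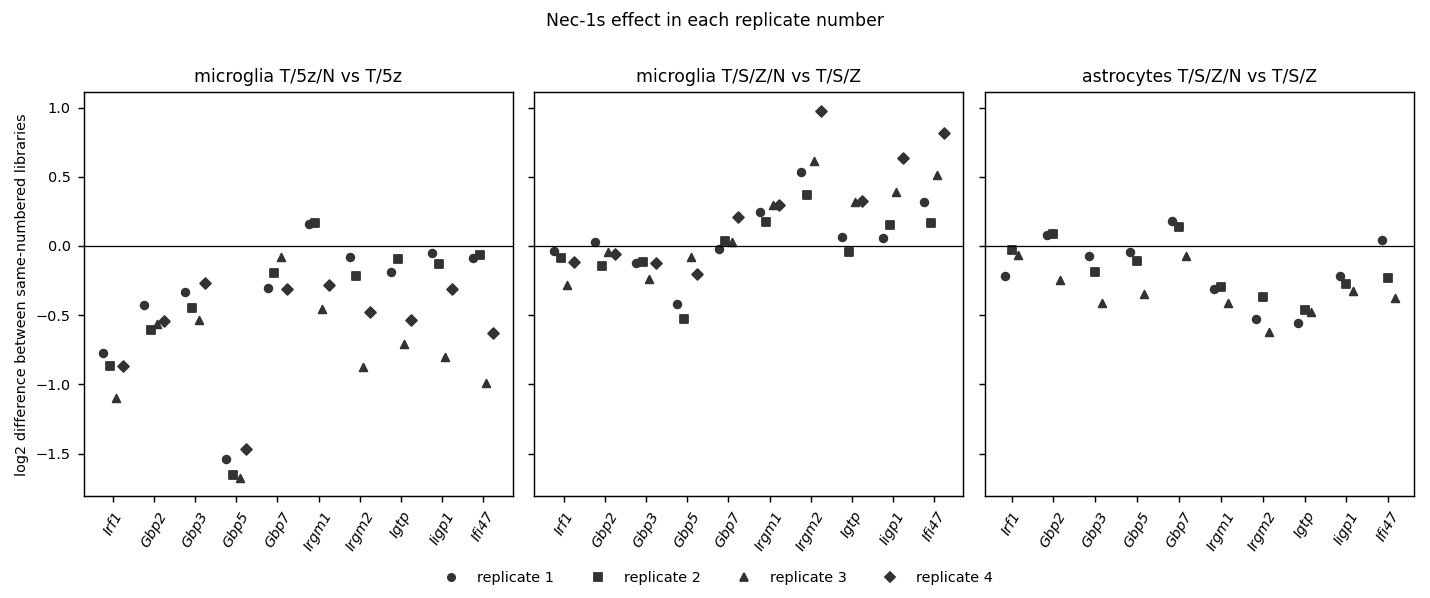
Difference made by Nec-1s in each replicate number: the vertical axis is the log2 value with Nec-1s minus that without it in the library of the same number, the horizontal axis is the gene, and each panel is a stimulus and cell type. Gbp5 and Irf1 sit well below 0 in all 4 replicates after T/5z, while Irgm2 lies between -0.87 and -0.08 after T/5z and between 0.37 and 0.98 after T/S/Z in microglia.

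Part of the response remained under Nec-1s. T/5z/N still raised 8 of the 10 genes against DMSO (6.16% of all tested genes were called higher), with a median change of 0.90 beside -0.02 over all tested genes. Gbp5 remained higher by 3.72 (SE 0.155, limma adjusted p 1.14e-06), Irf1 by 2.26 (SE 0.0965, limma adjusted p 1.26e-06), Gbp2 by 1.11 (SE 0.105) and Ifi47 by 1.06 (SE 0.0841). Igtp (0.56) and Irgm1 (0.28) were under the fold minimum. Without replicate 2, Igtp was called (0.63). With 5 added before the log 5 of 10 were called, and Gbp7 (0.36), Irgm2 (0.57) and Iigp1 (0.41) were not. Irgm2 was not called without replicate 4 either (0.54). T/S/Z/N raised the same pair as T/S/Z, 2 of 10 (6.2% of all tested genes were called higher), with Gbp5 higher by 1.58 (SE 0.112, limma adjusted p 2.64e-05) and Irf1 by 1.26 (SE 0.0932, limma adjusted p 3.15e-05).

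Against DMSO, 0 of 7 astrocyte markers were called after T/5z/N or after T/S/Z/N. Fibroblast and mural markers were called lower for 0 and 2 of 5, oligodendrocyte lineage markers for 1 and 0 of 4, and endothelial markers for 2 of 3 in each. Of all 10524 tested genes, 704 and 828 were called lower.

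Under Nec-1s the stimuli still differed. T/S/Z/N was lower than T/5z/N for 7 of 10 genes (1.59% of all tested genes were called lower), by 2.14 for Gbp5 (-2.14, SE 0.0952, limma adjusted p 4.74e-06) and by 0.99 for Irf1 (-0.99, SE 0.0474, limma adjusted p 6.15e-06). Irgm1, Irgm2 and Igtp were the genes under the fold minimum, with differences of -0.29, -0.30 and -0.22. Of the called genes, Gbp3 was under the fold minimum without replicate 4 (-0.58) and Iigp1 and Ifi47 were without replicate 1 (-0.56 each). The count was 3 with 5 added before the log and 4 without moderation of the variances. Of the fibroblast and mural markers 2 of 5 were called lower in this comparison as well (median -0.56), and their part was not tested.

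Astrocytes answered T/S/Z with all 10 genes. In astrocytes 10 of 10 were called higher after T/S/Z (6.39% of all tested genes were), none overlapped with DMSO (nor did 46.9% of all tested genes), and the median change was 2.85, beside -0.11 over all tested genes. Gbp5 read 1.07, 0.70 and 1.35 in DMSO and 7.20, 7.20 and 7.40 after T/S/Z, a rise of 6.22 (SE 0.106, limma adjusted p 1.49e-07). Gbp2 read 4.99, 5.10 and 5.20 in DMSO and 9.30, 9.29 and 9.53 after T/S/Z, a rise of 4.27 (SE 0.072, limma adjusted p 1.49e-07). At 662 FPKM after back-transformation it was the most abundant of the 10 genes there, ahead of Gbp5 (153), Irgm1 (136) and Irf1 (122).

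The effector IRGs and Irf1 came next. Ifi47 read 1.21, 0.85 and 1.54 in DMSO and 4.93, 5.15 and 5.02 after T/S/Z, a rise of 3.83 (SE 0.157, limma adjusted p 5.52e-06). Iigp1 rose by 3.31 (SE 0.132, limma adjusted p 4.9e-06), to 5.20, 5.13 and 5.15. Irf1 read 7.04, 6.87 and 6.92 after T/S/Z and rose by 3.13 (SE 0.0684, limma adjusted p 3.15e-07). The regulators Irgm2, Igtp and Irgm1 rose by 2.23, 2.19 and 1.97, Gbp7 by 2.57 and Gbp3 by 1.97. The microglial and astrocyte tables were fitted separately, and the difference between the cell types was not tested. Without moderation of the variances 5 of 10 astrocyte changes were called, with adjusted p between 0.0123 and 0.0709.

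Microglial markers in the astrocyte cultures were lower after T/S/Z. Of 13 tested, 8 were called lower and 0 higher, and their summed level was 76.0 to 79.7 FPKM after T/S/Z against 124 to 134 in DMSO. Fibroblast and mural markers also fell, with 6 of 8 called lower and sums of 623 to 714 FPKM against 1152 to 1312. Of the endothelial markers 3 of 5 were called lower and 1 higher, with sums of 12.1 to 13.6 FPKM against 29.6 to 32.0. Of the oligodendrocyte lineage markers 2 of 8 were called lower (120 to 157 FPKM against 182 to 208), and of the astrocyte markers 3 of 12. Neuron markers summed to 53.7, 63.5 and 67.6 FPKM after T/S/Z against 48.8 to 51.6 in DMSO, and 1 of 3 tested was called higher. The part of any of these cells in the rises of the 10 genes was not tested.

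**Figure D5:**
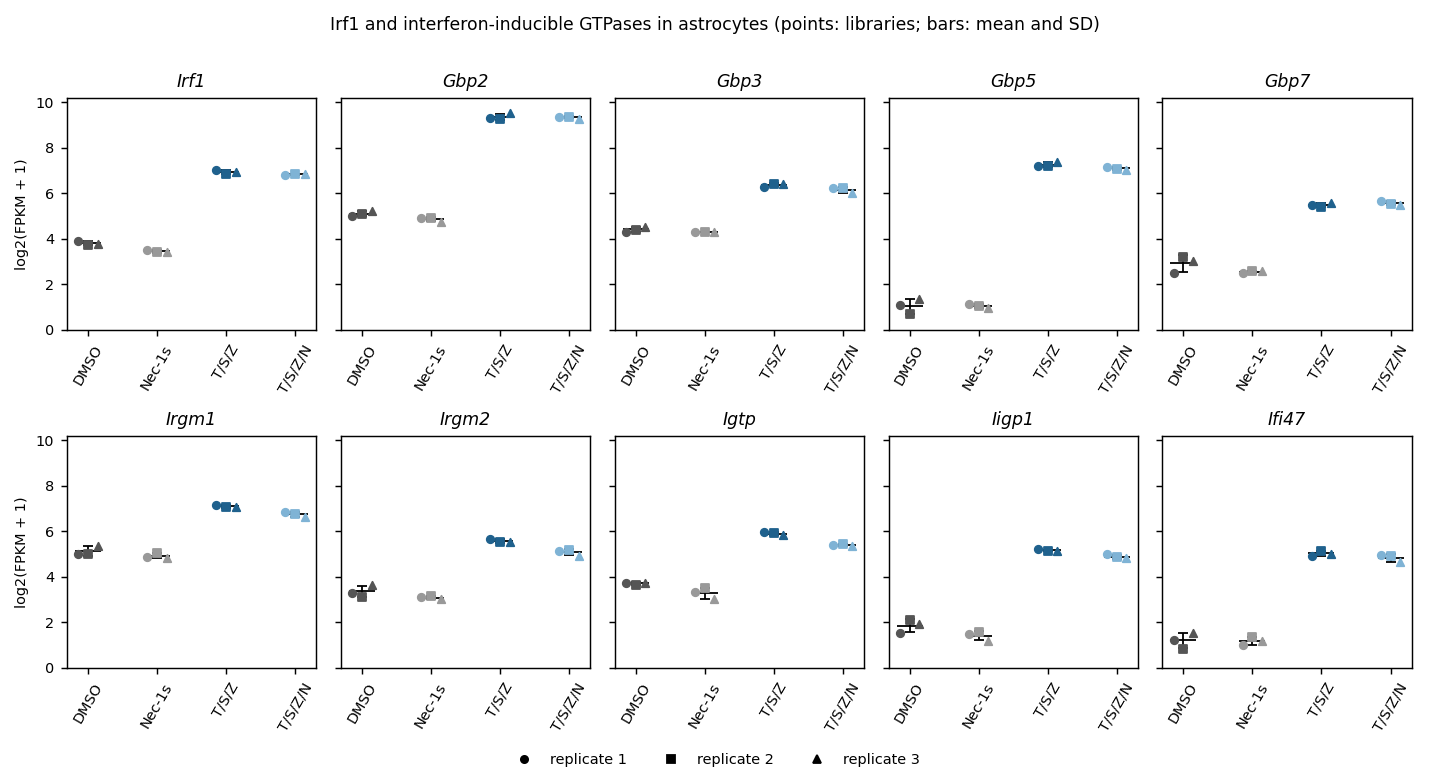
Levels of the 10 genes in astrocytes: each panel is a gene, the horizontal axis is the treatment, the vertical axis is log2(FPKM + 1), points are libraries with a symbol per replicate number, and bars are the mean and SD of 3 libraries. In every panel the T/S/Z and T/S/Z/N libraries stand above DMSO and Nec-1s, with Gbp2 at 9.29 to 9.53 after T/S/Z.

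Nec-1s left these rises in place in astrocytes. None of the 10 genes was called when Nec-1s was added to T/S/Z (0 of 10, with 3.1% of all tested genes called), while 5 of 10 had an unadjusted p under 0.05, as did 4134 of all 13842 genes (29.9%). Irgm2 read 5.68, 5.54 and 5.55 after T/S/Z and 5.15, 5.17 and 4.92 after T/S/Z/N. The difference was -0.51 (SE 0.0882, limma adjusted p 0.0208). Igtp differed by -0.50 (SE 0.08, limma adjusted p 0.0154) and Irgm1 by -0.34 (SE 0.0802, limma adjusted p 0.048), each in 3 of 3 pairs and under the fold minimum. Gbp2 differed by -0.02 (95% interval -0.26 to 0.21), Irf1 by -0.10 (-0.30 to 0.09) and Gbp5 by -0.17 (-0.38 to 0.05), and these intervals lie inside the fold minimum. Microglial markers rose with Nec-1s, 4 of 13 called, and so did fibroblast and mural markers, 6 of 8 called. Of the endothelial markers 1 of 5 was called higher, and of all 13842 tested genes 209 were. The part of these markers in the values of the 10 genes was not tested.

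T/S/Z/N still raised 10 of 10 genes against DMSO in astrocytes (4.36% of all tested genes were called higher). Gbp5 was higher by 6.06 (SE 0.133, limma adjusted p 4.88e-06), Gbp2 by 4.25 (SE 0.0763, limma adjusted p 2.98e-06) and Irf1 by 3.03 (SE 0.0713, limma adjusted p 5.28e-06). The smallest change, 1.63, was that of Irgm1. Of the markers, 4 of 12 for astrocytes, 2 of 8 for fibroblasts and mural cells, 2 of 13 for microglia, 2 of 8 for the oligodendrocyte lineage and 2 of 5 for endothelium were called lower, with 1 astrocyte and 1 endothelial marker higher. Their part was not tested. Without moderation of the variances, where each gene's spread came from 3 pairs alone, 0 of 10 were called (limma fit, adjusted p between 0.0593 and 0.123).

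The neighbouring genes of the pathway were taken from lists. Ifng, the interferon that most strongly induces GBPs and IRGs, is not among the genes listed in either table. Of the 14 genes for interferons and their receptors 6 were tested in microglia and 5 in astrocytes. T/5z raised 2 and lowered 1, T/S/Z raised 2 and lowered 0 in microglia, and T/S/Z raised 4 and lowered 0 in astrocytes. Ifnb1, which encodes interferon-beta, was listed in microglia. It read 0.24, 0.31, -0.23 and 0.09 in DMSO and 0.70, 0.93, 0.92 and 0.42 after T/5z. In the T/S/Z libraries it read 1.57, 1.06, 1.88 and 1.97, and with Nec-1s added 0.71, 0.41, 0.97 and 0.73. Ifnb1 passed the filter on low values through its T/S/Z libraries alone, so no test of it is given, although the counts of genes raised by each stimulus in microglia include it. Ifngr1, a chain of the interferon-gamma receptor, rose by 1.18 with T/5z (SE 0.0416), by 0.66 with T/S/Z (SE 0.0735) and in astrocytes by 0.96 with T/S/Z (SE 0.0719).

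Irf2, which competes with IRF1 for its sites, fell in microglia by 0.67 with T/5z (-0.67, SE 0.0624) and by 1.22 with T/S/Z (-1.22, SE 0.0591). In astrocytes it rose by 0.67 with T/S/Z (SE 0.094, limma adjusted p 0.00164). Of the JAK-STAT and IRF signalling genes (20 of 22 tested in each table), T/5z raised 5 and lowered 3, T/S/Z raised 4 and lowered 4 in microglia, and T/S/Z raised 10 and lowered 0 in astrocytes. Beside the shares called higher given above, 13.3% (T/5z) and 17.5% (T/S/Z) of all tested genes were called lower in microglia, as were 8.99% in astrocytes. Socs3, a feedback inhibitor of cytokine signalling, rose by 3.75 (SE 0.109) with T/5z and by 4.64 (SE 0.117) with T/S/Z in microglia.

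The remaining GBP and IRG genes were counted next. Of 19 listed genes 10 were tested in microglia, where T/5z raised 3 and lowered 2 and T/S/Z raised 0 and lowered 3. Their median changes were -0.04 and -0.32. Of all tested genes, 11.1% and 12.2% were called higher and 13.3% and 17.5% lower. All 11 tested in astrocytes were called higher after T/S/Z, with a median change of 2.08, although Gbp4 among them passed the filter through stimulated libraries alone. Gm12250, an IRG gene, rose by 2.04 (SE 0.201), Gbp6 by 1.47 (SE 0.0551) and Tgtp2 by 1.25 (SE 0.119) with T/5z. After T/S/Z in astrocytes Gbp6 rose by 4.18 (SE 0.0871). T/S/Z lay below T/5z for 5 of the 10 in microglia, and 0 lay above it (5.42% of all tested genes did).

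Other known targets of IRF1 and the type I interferon-stimulated genes were counted in the same way. Of 17 IRF1 targets tested in microglia T/5z raised 10 and lowered 0, with a median change of 0.68, and T/S/Z raised 6 and lowered 1, with a median of 0.20. In astrocytes T/S/Z raised 14 of 16. Il15, a cytokine for lymphocytes, rose by 2.30 (SE 0.164) with T/5z and was lower after T/S/Z than after T/5z (-1.65, SE 0.0884). Vcam1, an adhesion molecule, rose by 3.57 (SE 0.273) with T/5z and by 2.46 (SE 0.179) with T/S/Z. Of 25 type I interferon-stimulated genes tested in microglia T/5z raised 10 and lowered 1, T/S/Z raised 5 and lowered 3, and 8 were lower and 0 higher after T/S/Z than after T/5z. In astrocytes T/S/Z raised 22 of 23, and 12 of these 23 were called lower with Nec-1s (1.59% of all tested genes were). Of the 10 genes 0 were, with Irgm2, Igtp and Irgm1 under the fold minimum as given above, and the difference between the lists was not tested. Of the NF-kB targets 18 of 20 rose with T/5z and 19 of 20 with T/S/Z in microglia, and after T/S/Z 4 were higher and 3 lower than after T/5z. Added to T/5z, Nec-1s lowered 14 of the 20, and added to T/S/Z it lowered 9 and raised 1. Of all 10524 tested genes, 476 and 707 were called lower in these comparisons. In astrocytes 19 of 20 rose with T/S/Z, and 8 of 20 were called lower when Nec-1s was added. These lists were not tested against each other or against the 10 genes.

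Genes whose pattern over the libraries was most like that of Irf1 were named by Pearson's r, as a description over libraries that share treatments. Over the 24 microglial libraries the closest genes outside the 10 were Fchsd2 (r = 0.99), Osbpl3, Parp14, Ifit1 and Ncf1 (each 0.99). Of the GTPase genes Gbp5 was closest (r = 0.987) and Irgm1 farthest (r = 0.583). Over the 12 astrocyte libraries the closest outside the 10 were Cxcl10, Tlr2, Ccl2, Birc3 and Ccl7, each with r of 0.996 or more, and of the GTPase genes Gbp2 was closest (r = 0.997) and Irgm2 farthest (r = 0.983). For the mean of the 9 GTPase genes the closest in microglia were Ifih1, Gm12250, Parp9, Smap2 and Dirc2, and in astrocytes Ccl2, Cxcl10, Parp9, Ccl7 and Ddx58. Over the 45 pairs of the 10 genes, r ranged from 0.583 to 0.987 in microglia (median 0.889) and from 0.97 to 0.998 in astrocytes (median 0.99).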

How the data were processed

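RNA of 24 microglial and 12 astrocyte libraries was analysed from the deposited tables. The authors used OmicSoft Array Studio for alignment and quantification. Their deposited unit is log2(FPKM + 1), where FPKM scales fragments by exon length and library size, brought in each table to a common 75th percentile (4.11 to 4.16 in microglia, 4.73 to 4.74 in astrocytes). Per the labels, Genewiz made the microglial libraries and BGI the astrocyte libraries with a strand-specific protocol, while the methods of the study name BGI alone. In the microglial table each gene had the same mean in every replicate number (largest difference 8.33e-05), an adjustment that the methods do not describe. It left negative values in replicates 1 to 3, none of them in the 10 genes. Counts and library totals were not analysed here, and no counting interval is given.

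Genes with a log2 value of at least 1 in at least 4 microglial or 3 astrocyte libraries were tested by limma 3.58.1 (R 4.3.3; lmFit, eBayes with trend), 2-sided, on the libraries compared, with replicate number as a blocking term, since the study tested in pairs. Adjusted p is Benjamini-Hochberg over all genes tested. A gene was called at a fold over 1.5 and adjusted p under 0.05. The fit was tested on simulated data. Deviations of same-numbered astrocyte libraries from their group means correlated with r from -0.144 to 0.411, so the numbers are not shown to pair them. In microglia r was -0.458 to 0.257, but the equal means per replicate number lower it, so that it cannot show whether the numbers pair the libraries.

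The 10 genes and all gene lists (interferons and receptors, JAK-STAT and IRF genes, other GBP and IRG genes, IRF1 targets, type I interferon-stimulated genes, NF-kB targets and markers of microglia, astrocytes, oligodendrocyte lineage, endothelium, fibroblasts and mural cells, T and NK cells and neurons) were chosen with earlier results of these data known. All 10 genes are named with their values. Of each list counts are given, with at most 4 called genes of largest change, besides Ifng, Ifnb1 and Irf2. A further gene of that rule is not reported here. Likeness names the 5 tested genes of highest r outside the 10, and the closest and farthest of the 9 GTPase genes for Irf1. Alternatives were 5 added before the log, no filter, quantile normalization, centring on library medians, ordinary variances, 1 fit over all libraries, no block, and leaving out each replicate number.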

Additional observations from a re-analysis of the deposited data

Results flagged for a closer look

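In 4 of 60 groups of 4 microglial libraries, 1 library lay far from the other 3 (Dixon's test, which by chance picks about 1 group in 20). In DMSO microglia, replicate 4 was low for Irgm1 (5.33, group median 5.61) and for Irgm2 (3.37, group median 3.81), and replicate 2 was high for Igtp (4.17, group median 3.90). In T/S/Z/N, replicate 4 was high for Irgm2 (4.32, group median 4.04). Each gene has the same mean in every replicate number of this table, so the values of a number are not independent between treatments. Without replicate 4, the rise of Irgm2 with Nec-1s after T/S/Z was 0.50, under the fold minimum.

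By limma's interaction test, 5 genes responded unequally to Nec-1s after the stimuli in microglia (2.7% of all tested genes were called lower). The effect after T/5z minus that after T/S/Z was -0.77 for Irf1, -1.28 for Gbp5, -1.03 for Irgm2, -0.63 for Iigp1 and -0.90 for Ifi47. The count was 3 to 6 when 1 replicate number was left out, and Iigp1 and Ifi47 were not called without replicate 4.

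With T/S/Z, 3 genes were lower than DMSO in 4 of 4 microglial pairs and higher in 3 of 3 astrocyte pairs. They were Gbp7 (-0.15 in microglia, 2.57 in astrocytes), Irgm1 (-0.26 and 1.97) and Irgm2 (-0.22 and 2.23). This difference between the cell types was not tested, and genes with opposite directions were not counted over all tested genes. In these comparisons 73.6% of all tested genes in microglia and 49.7% in astrocytes had an unadjusted limma p under 0.05. The microglial changes were under the fold minimum, and that of Gbp7 was above 0 after quantile normalization (0.083).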

How the results depend on the processing

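Of 1500 changes of single genes recomputed under the alternatives, 1424 kept their direction and their side of the threshold, 45 lost the call, 4 gained it and 27 changed direction. Of those 27, 0 had been called, and the largest of their reported changes was 0.15 in size. After quantile normalization Gbp7, Iigp1 and Ifi47 were at 0.083, 0.11 and 0.094 for T/S/Z against DMSO in microglia. Gbp7 was at -0.018 for Nec-1s added to T/S/Z and at 0.065 for T/S/Z/N against DMSO. In astrocytes Gbp5 and Ifi47 were at 0.023 and 0.0040 for Nec-1s alone, and Gbp2 at 0.027 for Nec-1s added to T/S/Z. After centring, Ifi47 was at 0.050 for T/S/Z against DMSO, Gbp7 at -0.011 for Nec-1s added to T/S/Z and Irgm1 at 0.014 for T/S/Z/N against DMSO. The other 16 came from leaving out 1 replicate number. For Nec-1s alone in microglia the values then ranged from -0.0011 to 0.11 for Gbp3, -0.13 to 0.038 for Gbp5, -0.036 to 0.11 for Gbp7, -0.034 to 0.032 for Irgm1, -0.038 to 0.10 for Irgm2 and -0.045 to 0.17 for Iigp1. For Nec-1s alone in astrocytes they ranged from -0.17 to 0.20 for Gbp5 and -0.29 to 0.14 for Ifi47. They were -0.16 to 0.044 for Ifi47 with T/S/Z against DMSO, -0.19 to 0.015 for Irgm1 with Nec-1s added to T/5z, -0.10 to 0.033 for Irgm1 with T/S/Z/N against DMSO, all in microglia, and -0.082 to 0.085 for Gbp2 with Nec-1s added to T/S/Z in astrocytes. Of 150 recomputed counts of called genes, 140 stayed within 1.5 times the reported count. With 5 added before the log, the count was 0 for Nec-1s added to T/S/Z in microglia, 5 for T/5z/N against DMSO and 3 for T/S/Z/N against T/5z/N. For Nec-1s added to T/S/Z in microglia it was also 0 after quantile normalization and after centring. With ordinary variances the count was 4 for T/S/Z/N against T/5z/N, 5 for T/S/Z and 0 for T/S/Z/N against DMSO in astrocytes. Leaving out 1 replicate number gave 0 to 1 for Nec-1s added to T/S/Z in microglia and 3 to 6 for the interaction. Without the replicate block, all 14 counts were equal to those with it (9 of 10 for T/5z against DMSO, for example), and all 140 calls were the same, which in microglia says little, since the replicate means of each gene are equal there. Values without library totals give no counting error, the precision of low values (Gbp5, Iigp1 and Gbp7 in unstimulated microglia, Gbp5 and Ifi47 in astrocytes) is not known, and overlapping exons and similar family members limit how well single GTPase genes are separated.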

Other observations

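Markers of cells that could be carried over in the cultures were also listed. Of 10 T and NK cell markers 1 was listed in microglia, with 5.02 to 10.4 FPKM over all libraries, and 0 in astrocytes. Neuron markers summed to at most 2.01 FPKM in microglia and to between 45.4 and 67.6 FPKM in astrocytes (3 of 7 listed). Oligodendrocyte lineage markers summed to between 45.2 and 60.3 FPKM in microglia and to between 120 and 215 FPKM in astrocytes, and endothelial markers to between 3.41 and 9.78 and between 12.1 and 32.0 FPKM.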
